A study of Mus musculus with 4 samples.

Results

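The genes described here are 9 regulators of mRNA decay: the zinc finger genes Zfp36, Zfp36l1 and Zfp36l2, the Regnase genes Zc3h12a and Zc3h12d, the Roquin genes Rc3h1 and Rc3h2, the related nuclease gene N4bp1, and Elavl1. They were taken by gene symbol from the 23990 symbols of the deposited tables, and all 9 were among the 10634 genes tested. Expression was measured as FPKM, fragment counts scaled to transcript length and library size, which allows levels to be compared between genes. The cells were effector CD4 cells (CD44+CD4) of wild type C57BL/6 mice (C57BL/6J in the study's methods) immunized with MOG, a myelin peptide, to induce EAE, an inflammatory disease of the central nervous system that serves as a model of multiple sclerosis. They were sorted at disease onset, with 2 CNS libraries made from spinal cord cells and 2 dLN libraries made from cells of draining lymph nodes that had been pooled. No age was given, and there was no untreated group, so each comparison is of CNS against dLN in immunized mice. The study's methods describe PMA and ionomycin stimulation of the sorted cells, while the sample labels call the cells freshly sorted and name no stimulation.

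These proteins set how long an mRNA lasts after it has been made. The Zfp36 proteins bind AU-rich elements in 3′ untranslated regions (UTRs) and recruit the CCR4-NOT complex, which removes the poly(A) tail. Roquins bind short stem-loops and recruit the same complex, and Regnase-1, the product of Zc3h12a, cuts mRNAs at such stem-loops. HuR, the product of Elavl1, binds AU-rich and U-rich stretches and often protects the mRNA. In T cells the Zfp36, Roquin and Regnase proteins restrain cytokine and costimulator mRNAs, and several of them act on their own transcripts.

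The sites that the Zfp36 family recognises were also present in the members' own mRNAs. The nonamer TTATTTATT, searched on the sense strand of the longest annotated 3′ UTR (GENCODE M21, GRCm38, the assembly called mm10), was found in 6 of the 9 members. It was present in 7.7% of 20919 mouse 3′ UTRs. Zfp36, Zfp36l1, Zfp36l2, Rc3h1 and Rc3h2 held 1 match each. Elavl1 held 8, most of them overlapping, which began between bases 3794 and 3840 of its UTR. The first match of each gene is shown with 10 bases on either side, 5′ to 3′ on the strand of the mRNA, with the nonamer in capitals and each window within a single exon, because it is the letters that these members share.
Zfp36, chr7:28376951-28376979, minus strand: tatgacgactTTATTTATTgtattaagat
Zfp36l1, chr12:80108167-80108195, minus strand: aactgttggaTTATTTATTttagaaattc
Zfp36l2, chr17:84184914-84184942, minus strand: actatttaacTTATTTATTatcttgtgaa
Rc3h1, chr1:160970043-160970071, plus strand: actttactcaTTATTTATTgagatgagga
Rc3h2, chr2:37373287-37373315, minus strand: caaagacattTTATTTATTttactctgta
Elavl1, chr8:4285788-4285816, minus strand: gtcatgaaaaTTATTTATTtatttattta
Outside the nonamer the flanks of the 3 Zfp36 family genes differed from each other. Zc3h12a, Zc3h12d and N4bp1 had no match to the nonamer, and none to its 7-base core TATTTAT, which was present in 27.7% of mouse 3′ UTRs. UTR length differed widely, from 774 bases in Zfp36 to 7181 bases in Rc3h1, and a longer UTR has more room for a match by its length alone.

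The second element was the core of the constitutive decay element, the stem-loop bound by Roquin: TTC, a pyrimidine, a purine, a pyrimidine, then GAA. It was present in 3 of the 9 members and in 5.4% of mouse 3′ UTRs. Both Roquin genes carried it with the same 9 letters, Rc3h1 at 2 positions and Rc3h2 at 1, and they are shown in capitals for that reason.
Rc3h1, chr1:160968032-160968060, plus strand: tttgtttttgTTCTGTGAAtgaactttat
Rc3h1, chr1:160971653-160971681, plus strand: agccaataacTTCTGTGAAgttgcctttt
Rc3h2, chr2:37373802-37373830, minus strand: tttaattaacTTCTGTGAAgttgtttact
The second Rc3h1 window and the Rc3h2 window shared the letters AAC before the core and GTTG after it. The third member with this core was Elavl1. A match of letters is a description of the reference sequence and was not measured as binding.

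The depth of the libraries, inferred from the spacing of small FPKM values, was 18.66 M to 22.03 M fragments. Each member was covered by an estimated 767 to 27558 fragments per library, so none was near a count of 0. The CNS libraries held transcripts of the Y chromosome and almost no Xist, and the dLN libraries the reverse, so sex, tissue and handling cannot be told apart in any value below. Markers of CD4 T cells, 8 genes, summed to 3137 and 3169 FPKM in CNS and 1519 and 1417 in dLN. Of these 8, 5 were called higher and 2 lower in CNS, where 74.9% of all genes tested were called. Cd4 was at 502 and 531 FPKM in CNS and 82.0 and 66.7 in dLN, and Cd44 was at 112 FPKM in both CNS libraries and 176 and 157 in dLN. Cd2 was not called, with 487 FPKM in both CNS libraries and 502 and 480 in dLN. Glial and neuronal markers, 12 genes, summed to 50.1 and 50.3 FPKM in CNS and 56.1 and 58.1 in dLN, most of it Mbp, a myelin gene that lymphocytes also transcribe. Mbp alone was at 48.6 and 44.5 FPKM in CNS and 55.5 and 57.7 in dLN, so the sum says little about the other markers. Of these 12, 8 were listed at 0 in both dLN libraries. Only 3 were tested, with Gfap called higher in CNS (0.655 and 2.51 FPKM, against 0 in dLN) and Mbp lower. The 4 B cell markers summed to 0.258 to 1.76 FPKM over the libraries, and the 6 markers of CD8 T and NK cells to 15.4 and 19.4 FPKM in CNS and 4.15 and 3.62 in dLN. Markers of macrophages, microglia and neutrophils, 18 genes, summed to 30.9 FPKM in CNS replicate 1, 474 in CNS replicate 2, and 4.61 and 4.22 in dLN. Of these 18, 11 were listed at 0 in both dLN libraries, and S100a8 was at 0 in CNS replicate 1 and 101 FPKM in CNS replicate 2. CNS replicate 2 therefore stands apart, and some of the values that move with it, but not all, are given with and without it. In bulk RNA, more cells of a type and more RNA per cell cannot be told apart.

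The Zfp36 family held the widest differences among the 9 genes, and its 3 genes went in opposite directions. Zfp36l2 was about 10-fold higher and Zfp36 about 6-fold higher in CNS, while Zfp36l1 was more than 4-fold higher in dLN. Each was tested with limma on log2(FPKM + 1), with Benjamini-Hochberg adjustment over all 10634 genes and a threshold of 0.05. At that threshold 7 of the 9 members were called, 3 higher and 4 lower in CNS, but so were 74.9% of all genes tested, 37.8% higher and 37.2% lower. The 7 calls are therefore close to the background, and the sizes are more informative than the count. Over all genes tested, 40.4% had a log2 ratio of at least 1 in either direction, and among the members 3 of 9 did, all of them in the Zfp36 family. The labels do not say whether replicates came from separate animals, so the p-values measure only the spread between these libraries.

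**Figure D1:**
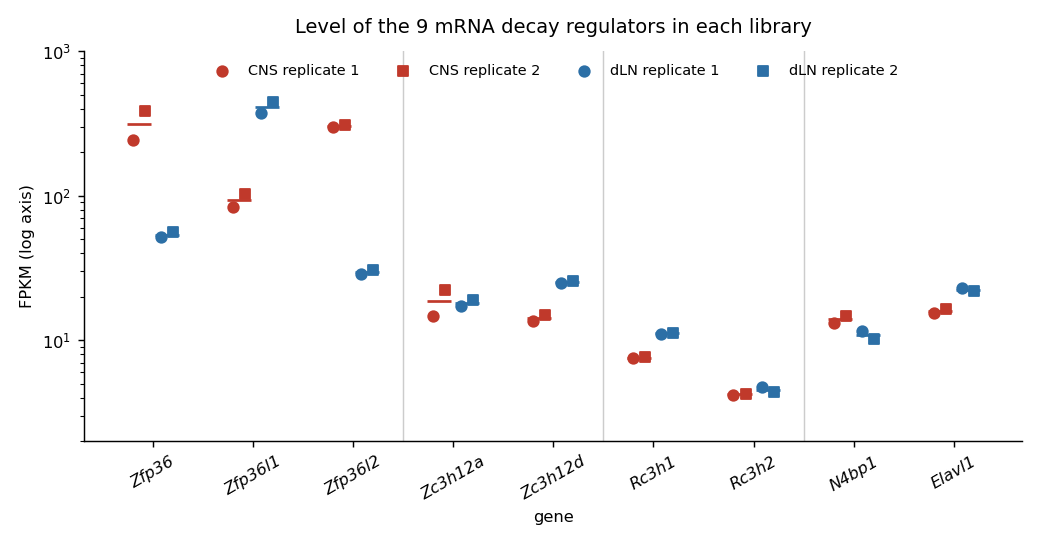
FPKM of each of the 9 genes (x axis) in the 4 libraries on a log axis; circles are replicate 1 and squares replicate 2, in red for CNS and blue for dLN, and short lines are the mean of the 2 libraries. The red points of Zfp36 and Zfp36l2 lie above the blue ones and those of Zfp36l1 below them, while the other 6 genes lie between 4.15 and 25.8 FPKM in every library.

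Zfp36l2 (chromosome 17, 84183928 to 84187947, minus strand) encodes a CCCH zinc finger protein with the same RNA-binding fold as Zfp36, and is known to silence preformed cytokine mRNAs in memory T cells. Its FPKM was 300 and 307 in the CNS libraries and 28.5 and 30.4 in the dLN libraries. The 2 pairs were far apart and each pair was tight. The mean was 303 ± 5.14 in CNS and 29.5 ± 1.32 in dLN (SD, n = 2), a 10.3-fold difference. The log2 ratio was 3.32 (SE 0.08, adjusted p = 8.12e-05, limma). It ranked 153 from the top among the genes tested.

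Zfp36 (chromosome 7, 28376784 to 28379228, minus strand) encodes tristetraprolin, the founding member of the family and an immediate early gene. Its FPKM was 244 and 386 in CNS and 51.8 and 55.7 in dLN. All CNS values lay above all dLN values, although the 2 CNS libraries differed from each other by 1.58-fold. The log2 ratio was 2.49 (SE 0.23, adjusted p = 0.000543, limma). The higher CNS library was replicate 2, the one with the high myeloid marker sum. Without it the log2 ratio was 2.17, still past the threshold (adjusted p = 0.00258, limma). The part of myeloid RNA in the difference between the CNS libraries was not tested.

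Zfp36l1 (chromosome 12, 80107760 to 80113013, minus strand), the remaining family gene, acts with Zfp36l2 in lymphocyte development and with Zfp36 in restraining effector T cells. Its FPKM was 83.3 and 102 in CNS and 372 and 446 in dLN. The order was thus the reverse of that of both its paralogs, with no overlap between tissues. The log2 ratio was -2.13 (SE 0.14, adjusted p = 0.000242, limma), and the mean was 4.41-fold higher in dLN.

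**Figure D2:**
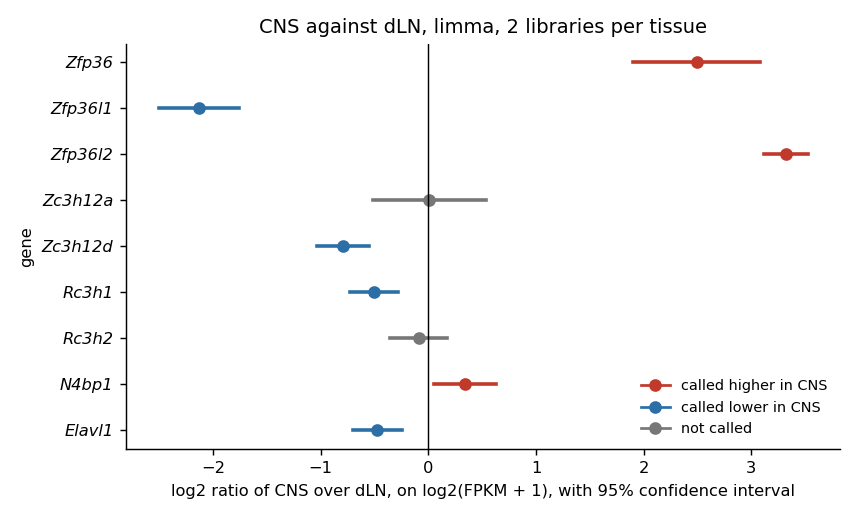
Log2 ratio of CNS over dLN on log2(FPKM + 1) for the 9 genes, with the 95% confidence interval from limma as a bar, 2 libraries per tissue; red genes were called higher in CNS, blue lower, grey were not called. Only the 3 Zfp36 family genes lie beyond 1 in either direction, Zfp36l2 at 3.32, Zfp36 at 2.49 and Zfp36l1 at -2.13.

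Read as the make-up of the family, the dLN cells held mostly Zfp36l1 and the CNS cells mostly the other two. Zfp36l1 made up 82.3% and 83.8% of the family's summed FPKM in dLN, and 13.3% and 12.9% in CNS. Zfp36l2 held 47.8% and 38.6% of the sum in CNS and 6.30% and 5.71% in dLN. Zfp36 held 39.0% and 48.6% in CNS and 11.4% and 10.5% in dLN. None of these shares overlapped between the tissues. The 2 CNS libraries disagreed on which gene led, Zfp36l2 in replicate 1 and Zfp36 in replicate 2. The summed level of the family differed much less than its parts: 627 and 795 FPKM in CNS against 453 and 532 in dLN. With 2 libraries per tissue the smallest p that the exact permutation test allows is 0.333 (two-sided), which each share and each sum reached, so no share can pass 0.05 in this design. Within a single library, Zfp36l2 was 3.60 and 3.002 times Zfp36l1 in CNS and 0.0766 and 0.0681 times Zfp36l1 in dLN, a ratio that no scaling of whole libraries can alter.

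**Figure D3:**
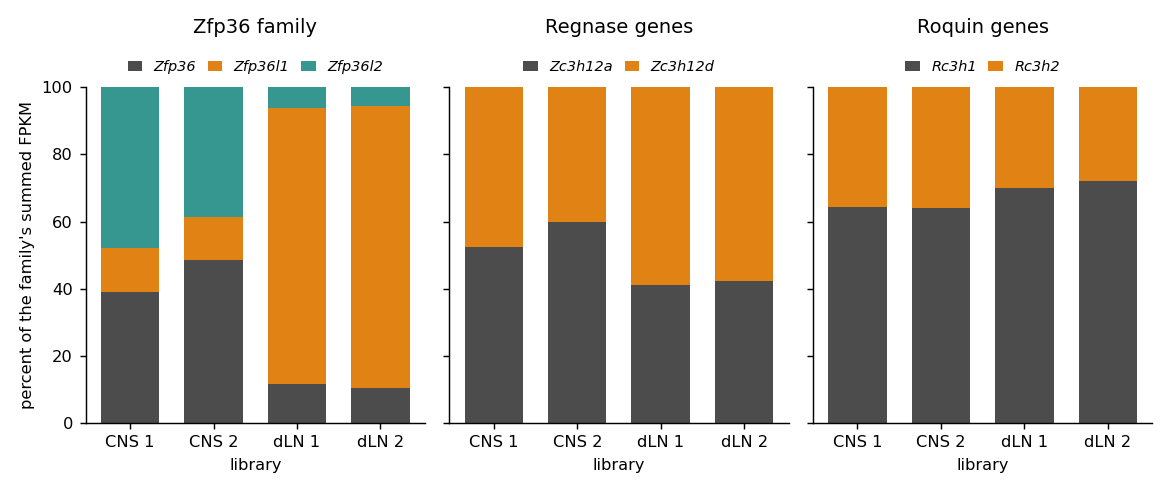
Percent of the summed FPKM of each family (y axis) held by each of its genes in the 4 libraries (x axis), as stacked bars. In the left panel Zfp36l1 holds 82.3% and 83.8% in the dLN libraries and 13.3% and 12.9% in the CNS libraries; the Regnase and Roquin panels shift by far less.

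The Regnase genes among the members showed a smaller difference, and only that of Zc3h12d was called. Zc3h12a (chromosome 4, 125118414 to 125127881, minus strand) encodes Regnase-1, the nuclease that keeps T cells from activating and is itself cleaved by Malt1 after antigen receptor stimulation. Its FPKM was 14.8 and 22.4 in CNS and 17.4 and 18.9 in dLN. The CNS libraries lay on both sides of the dLN libraries. The log2 ratio was 0.01 (adjusted p = 0.968, limma), with a 95% confidence interval of -0.52 to 0.54. That interval allows a difference in either direction, so the levels are not shown to be alike. As with Zfp36, replicate 2 was the higher CNS library, by 1.51-fold. Without it the log2 ratio was -0.27 (adjusted p = 0.108, limma), and without CNS replicate 1 it was 0.29, so the sign rested on which CNS library was kept. In the 7 members other than Zfp36 and Zc3h12a, CNS replicate 2 was 1.02 to 1.23 times CNS replicate 1.

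Zc3h12d (chromosome 10, 7832470 to 7870397, plus strand) encodes Regnase-4, a related CCCH protein that has been linked to growth suppression in lymphocytes. Its FPKM was 13.5 and 15.0 in CNS and 25.01 and 25.8 in dLN, with no overlap. It was 1.78-fold higher in dLN (log2 ratio -0.79, SE 0.09, adjusted p = 0.00127, limma). Zc3h12a accordingly made up 52.3% and 59.9% of the Regnase sum in CNS and 41.0% and 42.3% in dLN.

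Of the Roquin genes, Rc3h1 was lower in CNS and no difference was detected for Rc3h2. Rc3h1 (chromosome 1, 160906411 to 160974976, plus strand) encodes Roquin-1, whose mutation in mice leads to follicular helper T cell accumulation and autoimmunity. Its FPKM was 7.48 and 7.63 in CNS and 11.1 and 11.2 in dLN, 2 tight pairs. The log2 ratio was -0.51 (SE 0.09, adjusted p = 0.00433, limma). Rc3h2 (chromosome 2, 37370071 to 37422903, minus strand), which encodes Roquin-2, its partly redundant paralog, was the lowest of the 9 genes in every library, with 4.15 and 4.27 FPKM in CNS and 4.74 and 4.36 in dLN. Its CNS libraries lay just below its dLN libraries. The log2 ratio was -0.09 (adjusted p = 0.442, limma) with a 95% confidence interval of -0.35 to 0.17. It was the only member with more than 1 transcript in the tables, and its second transcript held 0.779 to 1.33 FPKM. Rc3h1 made up 64.3% and 64.1% of the Roquin sum in CNS and 70.1% and 72.0% in dLN.

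N4bp1 and Elavl1 differed by less than 1 on the log2 scale. N4bp1 (chromosome 8, 86841139 to 86885258, minus strand) encodes a nuclease with the same kind of NYN domain as the Regnases, and is another Malt1 substrate. Its FPKM was 13.1 and 14.8 in CNS and 11.5 and 10.1 in dLN. The tissues did not overlap, and the log2 ratio was 0.34 (SE 0.11, adjusted p = 0.0407, limma). This call was lost when any 1 of the 4 libraries was left out (adjusted p = 0.0641 to 0.189, limma) and with libraries scaled to the same FPKM sum (0.225). Elavl1 (chromosome 8, 4284782 to 4325100, minus strand), the stabilising member, was at 15.4 and 16.4 FPKM in CNS and 22.8 and 22.0 in dLN. It was 1.41-fold higher in dLN without overlap (log2 ratio -0.47, SE 0.09, adjusted p = 0.00576, limma). Over all members, CNS and dLN values did not overlap for 8 of 9, a pattern shown by 89.4% of all genes tested.

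Ordered by level, the CNS cells had Zfp36 and Zfp36l2 at the top, and these did not differ beyond their spread, since Zfp36l2 lay between the 2 values of Zfp36. Zfp36l1 came next, well below them, and then Zc3h12a, Elavl1, Zc3h12d and N4bp1 within a narrow range. As neighbours in that range, Zc3h12a overlapped Elavl1, and Zc3h12d overlapped N4bp1. Zc3h12a also overlapped Zc3h12d, which was not its neighbour. Rc3h1 and then Rc3h2 were lowest. In dLN the order was Zfp36l1, Zfp36, Zfp36l2, Zc3h12d, Elavl1, Zc3h12a, Rc3h1, N4bp1 and Rc3h2, and only Rc3h1 and N4bp1 overlapped as neighbours. The Zfp36 family thus held the top 3 places in both tissues, with Zfp36l1 first of the 3 in dLN and last of the 3 in CNS.

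The genes whose values over the 4 libraries were most like those of Zfp36l2, by Euclidean distance on log2(FPKM + 1), were Klf6, Rgs10 and Dnajb1. Klf6, a zinc finger transcription factor, was at 300.4 and 299 FPKM in CNS and 31.9 and 33.0 in dLN (distance 0.197). Rgs10, a regulator of G protein signaling, was at distance 0.319, and Dnajb1, a heat-shock co-chaperone, at 0.359. The genes most like Zfp36l1 were Hspd1, the mitochondrial chaperonin (distance 0.288), the nuclear transport GTPase Ran (0.378) and the cold-shock domain protein gene Ybx3 (0.497). Hspd1 was at 90.0 and 92.3 FPKM in CNS and 435 and 440 in dLN.

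Other stress and early-response genes also differed between the tissues and are given beside the Zfp36 family for that reason. Of 8 heat-shock genes, 5 were higher and 2 lower in CNS, and Hspa1a was at 1367 and 2082 FPKM in CNS and 5.69 and 3.76 in dLN. Of 18 stimulation-responsive genes, 10 were higher and 7 lower in CNS, and the median log2 ratio was 0.66 against 0.05 over all genes tested. Jun, an immediate early transcription factor, was at 293 and 391 FPKM in CNS and 13.8 and 14.4 in dLN. Egr2, induced by antigen receptor signaling, went the other way, with 9.52 and 20.8 FPKM in CNS and 249 and 305 in dLN. In CNS, 17 of the 18 stimulation-responsive genes and 17 of the 18 myeloid markers were higher in replicate 2 than in replicate 1, as were all 9 members. The share of all genes tested with that order is not given here, so these counts have no background beside them. The summed FPKM of the whole library was also larger in CNS replicate 2, 606829 against 576886. The part of handling or of stimulation in the members' differences was not tested.

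The machinery that these regulators act through was described with 4 lists, for deadenylation, decapping, the exosome and nonsense-mediated decay. Of their 60 tested genes, 16 were higher and 29 lower in CNS, 75% in all against the background of 74.9%, with a median of -0.23 for the log2 ratio. A further 5 lists covered other RNA-binding proteins, relatives of the members, enzymes that act on them and their known target mRNAs. Over all 9 lists, 113 different genes were tested, of which 30 were higher and 59 lower in CNS, 78.8% in all. Their median log2 ratio was -0.41, against 0.05 over all genes tested.

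Deadenylation, the step that Zfp36 and Roquin proteins trigger, was mixed. Of 18 genes, 6 were higher, 4 lower and 8 were not called, with a median log2 ratio of 0.00. The CCR4-NOT scaffold gene Cnot1 was at 30.1 and 27.2 FPKM in CNS and 38.9 and 38.4 in dLN (log2 ratio -0.42). Cnot2 (-0.54) and the deadenylase gene Cnot7 (-0.47) were lower to a like extent, the last not called with libraries scaled to the same upper quartile (adjusted p = 0.0569, limma). The largest differences in the list were in the other direction, in the BTG/TOB genes, whose products bind the Cnot7 deadenylase and are known for restraining proliferation. Btg2 was at 180 and 219 FPKM in CNS and 25.5 and 24.6 in dLN (log2 ratio 2.94, SE 0.12, adjusted p = 9.15e-05, limma). Tob1 was at 24.3 and 27.9 FPKM in CNS and 4.94 and 6.47 in dLN (log2 ratio 2.02). Cnot6l, a second type of deadenylase subunit, was also higher in CNS (log2 ratio 1.16). With libraries scaled to the same FPKM sum, 8 genes of this list rather than 4 were called lower, and with the same upper quartile 2. Without CNS replicate 2 there were 2 lower calls, and without either dLN library 1, with the calls of Cnot1 and Cnot7 lost.

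Decapping and decay from the 5′ end were mixed as well, with 7 of 19 genes higher and 10 lower and a median log2 ratio of -0.32. Xrn1, the 5′ exonuclease, was at 12.4 and 9.80 FPKM in CNS and 3.49 and 3.20 in dLN (log2 ratio 1.47, SE 0.14). Lsm5 (1.45) and the scavenger enzyme gene Dcps (1.13) were also higher. Lsm2 (-1.10), Lsm7 (-1.05) and the decapping activator gene Dcp1a (-0.86) were lower. Lsm genes thus lay at both ends of the list, although their products form rings together.

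The exosome, which degrades mRNA from the 3′ end, was lower in CNS across most of its subunits. Of 15 genes of the exosome and its Ski partners, 11 were lower and 1 was higher, with a median log2 ratio of -1.47, and 8 were lower by at least 1 log2 unit. Dis3, which encodes a catalytic subunit, was at 4.45 and 4.37 FPKM in CNS and 28.6 and 31.5 in dLN (log2 ratio -2.52, SE 0.09, adjusted p = 8.98e-05, limma). Exosc6 (-2.06) and Exosc2 (-2.01), which encode subunits of the barrel, followed. The 1 gene called higher was Skiv2l, the Ski helicase gene (0.61). Another 3 were not called: Exosc5, Exosc8 and Dis3l. Dis3l, a relative of Dis3, was at 6.70 and 5.55 FPKM in CNS and 5.61 and 4.56 in dLN (0.23, adjusted p = 0.2, limma). The lower level of Dis3 thus did not extend to Dis3l. The counts were 11 lower and 1 higher without either CNS library too, and 9 or 10 lower without dLN replicate 1 or 2.

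Upf1, the helicase of nonsense-mediated decay with which Regnase-1 works, was at 17.1 and 19.9 FPKM in CNS and 40.2 and 44.4 in dLN (log2 ratio -1.15, SE 0.11). Of the 8 genes of that list, 4 were lower, including Smg5 (-1.25), and 2 were higher, Upf3a (0.80) and Upf3b (0.60). The median was -0.33.

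Among 12 other proteins that bind AU-rich or UTR elements, 9 were lower and 2 higher, with a median log2 ratio of -0.75. Syncrip was at 33.8 and 35.0 FPKM in CNS and 148 and 144 in dLN (log2 ratio -2.06), followed by Hnrnpdl (-1.38). Elavl1, described above, lay on the same side. The 2 higher genes were Celf2 (1.10) and Arid5a. Arid5a, whose product protects Il6 mRNA from Regnase-1, was at 32.6 and 35.2 FPKM in CNS and 11.4 and 7.81 in dLN (log2 ratio 1.74, SE 0.18, adjusted p = 0.000831, limma).

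Of 9 close relatives of the members only 3 were expressed highly enough to be tested. Zc3h12c, the Regnase-3 gene, was at 0.992 and 1.85 FPKM in CNS and 5.97 and 5.90 in dLN (log2 ratio -1.54). Zc3hav1, which encodes the antiviral zinc finger protein ZAP, was at 86.4 and 87.1 FPKM in CNS and 33.1 and 26.4 in dLN (1.52), and Khnyn, the gene of its nuclease partner, was also higher (1.22). Each of the other 6, among them Zfp36l3, Zc3h12b and 3 neuronal Elavl genes, was at or below 0.14 FPKM in every library.

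**Figure D4:**
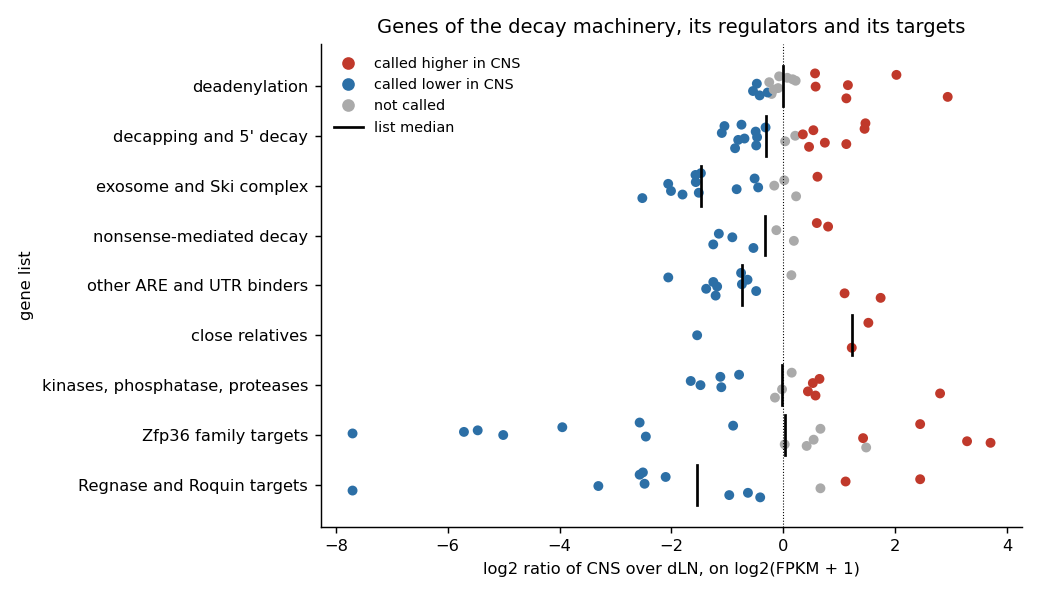
Log2 ratio of CNS over dLN on log2(FPKM + 1) for each tested gene of 9 lists (y axis), in red where called higher in CNS, blue where called lower and grey where not called, with the list median as a black line. The exosome and Ski list has its median at -1.47 and the Regnase and Roquin targets at -1.53, while the Zfp36 family targets spread from -7.70 to 3.71.

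The enzymes that modify these proteins were split, with 5 of 13 genes higher, 5 lower and a median log2 ratio of -0.02. Mapkapk2, which encodes the kinase MK2 that phosphorylates tristetraprolin and keeps it from recruiting the deadenylase, was at 115 and 133 FPKM in CNS and 384 and 400 in dLN (log2 ratio -1.65, SE 0.10, adjusted p = 0.000173, limma). Its relative Mapkapk3 was higher in CNS (0.65). The phosphatase gene Ppp2ca (-1.13) and the p38 kinase gene Mapk11 (-1.48) were lower. Btrc, a ubiquitin ligase gene whose product turns over Regnase-1, was barely expressed, with 1.89 and 2.05 FPKM in CNS and 1.17 and 0.833 in dLN (0.58). Without CNS replicate 2 or dLN replicate 2 its call was lost. Malt1, the protease that cleaves Regnase-1, Roquins and N4bp1, was chosen for mention after its values were seen. It was at 20.1 and 21.8 FPKM in CNS and 46.0 and 46.7 in dLN (-1.11, SE 0.09).

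The mRNAs known to be targets of the Zfp36 family did not shift in a common direction. Of 17, 4 were higher and 8 lower, and the extremes were far apart. The median log2 ratio of 0.03 was the value of Csf2, a gene with a wide error (SE 0.53), so it says little about the list. Cytokine mRNAs lay at the low end and elsewhere in the list. Il2, the T cell growth factor, was at 18.2 and 38.8 FPKM in CNS and 5363 and 6176 in dLN (log2 ratio -7.70, SE 0.35, adjusted p = 0.000101, limma), followed by Il22 (-5.71) and Il3 (-5.46). Ifng and Csf2 were chosen for mention after their values were seen. Ifng was at 469 and 693 FPKM in CNS and 324 and 138 in dLN (log2 ratio 1.43, adjusted p = 0.0343, limma), a call lost without CNS replicate 1 (adjusted p = 0.123), CNS replicate 2 (0.183) or dLN replicate 2 (0.0561). Csf2 was at 61.7 and 115 FPKM in CNS and 133 and 51.3 in dLN, values that overlapped (0.03, adjusted p = 0.967, limma). At the high end were Dusp1 and Fos, a phosphatase of MAP kinases and an AP-1 subunit, both early-response genes. Dusp1 was at 236 and 331 FPKM in CNS and 20.1 and 20.9 in dLN (3.71, SE 0.18), and Fos at 442 and 574 against 43.6 and 58.9 (3.29). Ptgs2, the prostaglandin synthase gene, was called higher (2.45, adjusted p = 0.0404, limma) with 16.5 FPKM in CNS replicate 2 and 2.23 in CNS replicate 1, and its log2 ratio was 1.23 without CNS replicate 2 (adjusted p = 0.0075, limma). Its call was lost without dLN replicate 1 (adjusted p = 0.136, limma) or dLN replicate 2 (adjusted p = 0.0986, limma). All 17 genes were higher in CNS replicate 2 than in replicate 1, a count given without the share over all genes tested. Without replicate 2 the list's median was -0.78, with 3 higher and 8 lower of 16 tested. Without replicate 1 it was 0.47, with 7 higher and 8 lower. Without dLN replicate 2, 2 were higher and the median was -0.65, and without dLN replicate 1 the median was 0.53.

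The targets of Regnase and Roquin lay mostly on the low side, 9 of 12 tested lower and 2 higher, with a median log2 ratio of -1.53. Of the 13 listed genes, Il2, Tnf, Il6 and Ptgs2 are on the Zfp36 list as well, so the lists are not separate. Irf4, an activation-induced transcription factor, was at 30.8 and 39.7 FPKM in CNS and 348 and 362 in dLN (log2 ratio -3.31, SE 0.14, adjusted p = 9.15e-05, limma). Tnf was at 95.4 and 129 FPKM in CNS and 589 and 745 in dLN (-2.57). Nfkbiz, an inhibitor-like regulator of NF-kB, went the other way, with 77.8 and 106 FPKM in CNS and 36.8 and 46.6 in dLN (1.11). Without CNS replicate 2 the median was -2.35, but over 11 tested genes rather than 12. With all libraries and a filter of 5 FPKM, which also left 11 genes, the median was -2.1. The change in the median is therefore not due to the replicate alone. Without either dLN library 1 gene was called higher.

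The nonamer was then counted in the 3′ UTRs of all tested genes with an annotated one, 9775 in number. Genes that held it were more often lower in CNS: 44.7% of 826 genes with at least 1 match, against 36.7% of 8949 genes without a match. For higher calls the shares were 29.8% and 38.4%. The median log2 ratio was 0.06 with 0 matches, -0.17 with 1 match and -0.42 with 2 or more. Matches came with longer UTRs, whose median length was 1066, 2174 and 2691 bases in the 3 classes. Among genes with a UTR between 499 and 2256 bases, the quartiles of all lengths, 44.8% of 362 genes with a match and 36.8% of 4528 without were lower. In that range genes with 2 or more matches had a median log2 ratio of -0.63, and 53.2% of these 77 genes were lower, against 49.2% over all lengths. Genes with a match still had the longer UTRs there, with a median of 1324 bases against 1133. The genes of a class are not independent of each other, and these shares were not tested. The members did not follow their matches in a common direction: with 1 match each, Zfp36 and Zfp36l2 were higher and Zfp36l1 and Rc3h1 lower in CNS, and Rc3h2 was not called.

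**Figure D5:**
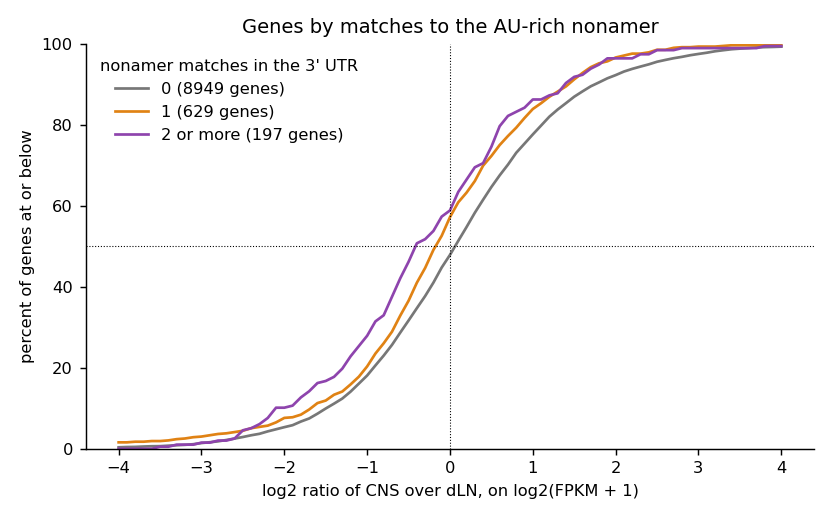
Percent of tested genes (y axis) at or below a given log2 ratio of CNS over dLN on log2(FPKM + 1) (x axis), in 3 lines for genes with 0, 1, and 2 or more matches to the nonamer in the 3′ UTR. The lines cross 50% near the class medians of 0.06, -0.17 and -0.42.

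Among tested genes averaging 10 FPKM or more in a tissue, the most matches were found in Cbx1, Elavl1, Cox19 and Nufip1, with 8 each, and Matr3, with 7. Nufip1 was at 5.43 and 4.997 FPKM in CNS and 15.8 and 16.8 in dLN (log2 ratio -1.48, SE 0.09, adjusted p = 0.000215, limma). Cbx1 (-0.63) and Cox19 (-0.57) were lower in CNS as well, and Matr3 was not called (-0.19, adjusted p = 0.21, limma). Of 25 tested target genes with an annotated 3′ UTR, 9 held the nonamer, 36.0% against 8.45% of all tested genes. These include the known Zfp36 family targets, and that family binds AU-rich elements, so an excess could be foreseen from the choice of genes. Tnf held 5 matches, Dusp1 2, and Il2 and Fos 1 each. The last 3 genes show that mRNAs with the same element lay at both ends of the comparison, Il2 at a log2 ratio of -7.70 and Dusp1 and Fos above 3.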

How the data were processed

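RNA of sorted effector CD4 cells was sequenced by the authors on HiSeq2500 from TruSeq RNA V2 libraries. The authors deposited FPKM per RefSeq transcript (mm10), normalized to transcript length and library size, in 1 table per tissue of 33819 transcripts. The aligner and the program that computed FPKM are not given in the sources used here, and replicates were not pooled in the tables. The CNS header holds both library names in 1 cell, and its columns were read in that order.

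FPKM was summed per symbol. The 565 transcripts without a symbol (0.142% to 0.446% of a library's FPKM) were left out. Genes averaging 1 FPKM or more in a tissue were tested with limma 3.58.1 (lmFit, eBayes with trend, R 4.3.3) on log2(FPKM + 1), tissue as the only term, Benjamini-Hochberg threshold 0.05. Fold changes on this scale understate the change of low genes. Depth was inferred from the spacing of small FPKM values, of which 89.58% to 92.33% were whole fragments within 0.05; counting error only is covered. On drawn values for 10634 genes, limma called 66 of 100 genes changed by 1 log2 unit, 100 of 100 changed by 2, and 10 unchanged genes. The draw changed only 100 genes of each size, while 74.9% of the genes tested were called in the data. The rates from the draw therefore do not carry over to the data. Shares were compared with an exact permutation test (two-sided). UTRs, strand and motif matches came from GENCODE M21. Sums and shares were computed in Python 3.11.15 with scipy 1.17.1, pandas 2.3.3 and numpy 2.4.6, and plots were drawn with matplotlib 3.10.9.

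The members and gene lists were chosen with earlier results of these data known. The genes named are the 9 members, up to 3 called genes with the largest ratio in each direction from a list, the 3 nearest to 2 members, and the 5 expressed genes with the most nonamer matches. Some genes that this rule takes are not reported here.

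Alternatives were the pseudocount, 3 scalings, the filter, the highest transcript instead of summing, eBayes without trend, a replicate block and leaving out each library. Replicate numbers were not taken to pair libraries: the deviations of same-numbered libraries correlated at 0.0933.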

Additional observations from a re-analysis of the deposited data

How the results depend on the processing

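Of 125 member values under the alternatives, 113 had the direction and the call of the reported value, and the 12 others fell on Zc3h12a, N4bp1 and Rc3h2. Under the same FPKM sum per library, Zc3h12a was at -0.18 and N4bp1 at 0.16. Under the same upper quartile Rc3h2 was at 0.019, and under median ratio scaling Zc3h12a was at -0.019. These scalings moved the median of all genes from 0.05 to -0.13, 0.16 and 0.02, so the changes in sign follow the shift. N4bp1 was not past the threshold with no filter (0.34, adjusted p = 0.0729, limma), where more genes entered both the fit and the adjustment. Without 1 library at a time, Zc3h12a ranged from -0.27 to 0.29 and N4bp1 from 0.26 to 0.42. With the replicate number as a block N4bp1 was at 0.34 but not past the threshold (adjusted p = 0.0643, limma), and no other member's call changed; the numbers mark no known pairing. Rc3h2 had no value under the filter of 5 FPKM. Of 1114 values of the 80 other named genes, 1071 kept direction and call, 38 were no longer past the threshold, 1 passed it, and 4 were reversed, all of Csf2: -0.17 under the same FPKM sum, -0.0031 under median ratio scaling, and -0.42 and -0.65 without CNS or dLN replicate 2 (range without 1 library -0.65 to 0.70). With 2 libraries per tissue and no counts, small differences such as those of Zc3h12a and Rc3h2 cannot be resolved.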
